A study of Mus musculus with 4 samples.

Results

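The genes described here are 9 regulators and markers of the primitive and visceral endoderm: Gata4, Gata6, Sox17, Sox7, Foxa2, Dab2, Pdgfra, Cubn and Amn. They were taken by symbol from the 24116 genes of a read count table of mouse embryonic stem cells, and all 9 had a row. The cells carry the strain label 12910la and were grown on gelatin in serum medium with LIF, the cytokine that keeps them undifferentiated. Wild-type cells gave 2 libraries, and a line made by transfecting a guide RNA against Kdm2a, sorting for GFP and expanding a single clone gave the other 2. The titles call the latter libraries knockout and their genotype label calls Kdm2a knocked down, so they are named here as labelled knockout 1 and 2. A difference between the groups cannot be told apart from a property of that 1 clone.

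The primitive endoderm is an extra-embryonic layer that separates from the pluripotent cells of the blastocyst and later forms the visceral and parietal endoderm of the yolk sac. FGF4 made by the pluripotent epiblast signals through FGF receptors and ERK to favour the zinc finger factor GATA6 over NANOG, and GATA4, SOX17, SOX7 and FOXA2 follow as the layer matures. PDGFRA is the receptor by which the early layer is often recognised, while DAB2, cubilin and amnionless belong to the uptake machinery of the visceral endoderm. Embryonic stem cells in serum are known to hold few cells of this kind. KDM2A, a demethylase of histone H3 lysine 36, binds unmethylated CpG dinucleotides through its CXXC zinc finger.

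RefSeq promoter windows of GRCm38.p6, the assembly behind mm10, were matched for 5 of the 9 genes (Foxa2, Dab2, Pdgfra, Cubn and Amn), and 4 genes (Gata4, Gata6, Sox17 and Sox7) had none in that table. The windows below are the 250 bases before an annotated start, written 5′ to 3′ on the strand of the gene, with every CG dinucleotide in capitals because this is the dinucleotide that KDM2A binds. Foxa2 is shown at its 3 annotated starts since it differed most between the libraries, and Dab2 (at the first of its starts) and Amn are shown since they were the members whose libraries did not overlap between the groups. The Foxa2 windows lie on the minus strand at chr2:148046970-148047219, chr2:148045949-148046198 and chr2:148045465-148045714, in that order. Dab2 is on the plus strand at chr15:6299539-6299788 and Amn on the plus strand at chr12:111270846-111271095.
Foxa2 first start: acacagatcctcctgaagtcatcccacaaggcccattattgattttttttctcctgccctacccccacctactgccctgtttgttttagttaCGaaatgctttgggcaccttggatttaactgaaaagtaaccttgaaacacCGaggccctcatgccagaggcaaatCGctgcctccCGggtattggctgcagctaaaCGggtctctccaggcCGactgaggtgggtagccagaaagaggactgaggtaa
Foxa2 middle start: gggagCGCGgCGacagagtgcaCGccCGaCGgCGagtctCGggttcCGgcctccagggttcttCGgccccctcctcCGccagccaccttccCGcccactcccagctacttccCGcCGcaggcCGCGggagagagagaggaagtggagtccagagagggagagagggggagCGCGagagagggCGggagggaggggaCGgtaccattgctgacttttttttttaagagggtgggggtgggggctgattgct
Foxa2 last start: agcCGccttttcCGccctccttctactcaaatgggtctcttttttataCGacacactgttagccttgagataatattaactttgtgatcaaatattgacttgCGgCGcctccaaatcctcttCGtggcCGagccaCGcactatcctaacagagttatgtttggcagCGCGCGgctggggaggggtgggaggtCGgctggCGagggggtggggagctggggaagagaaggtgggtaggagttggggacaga
Dab2 first start: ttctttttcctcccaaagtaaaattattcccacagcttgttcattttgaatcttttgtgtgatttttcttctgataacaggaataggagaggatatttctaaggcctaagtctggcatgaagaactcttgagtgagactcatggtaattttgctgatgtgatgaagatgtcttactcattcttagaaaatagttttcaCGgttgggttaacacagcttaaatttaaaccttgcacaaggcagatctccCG
Amn: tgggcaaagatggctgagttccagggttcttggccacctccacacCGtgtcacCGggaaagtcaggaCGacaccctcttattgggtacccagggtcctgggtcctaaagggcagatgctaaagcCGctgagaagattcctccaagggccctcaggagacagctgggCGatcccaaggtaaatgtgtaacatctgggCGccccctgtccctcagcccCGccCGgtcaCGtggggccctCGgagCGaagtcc
The Foxa2 windows held 6, 20 and 13 CG dinucleotides, Amn 11 and the first Dab2 window 2. The median over all 32851 windows of 27025 genes was 6, and 92.1% of them held at least 1. At least 20 CGs were found in 17.9% of all windows, and at least 13 in 31.5%. The second Dab2 start, inside the gene, had 17 CGs, Pdgfra had 4 and Cubn 2. The letters AGATAA, a site of the kind that GATA factors bind, were searched on both strands and occurred once, in the last of the Foxa2 windows, against 9.99% of all windows with a match. These counts describe the sequence and say nothing of binding in these cells.

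Total counts lay between 18844246 and 19056529 per library. Kdm2a itself had 2899 and 3554 counts in wild type and no fewer, 3710 and 4753, in the others, so directions rest on the labels. Over all tested genes, knockout 1 correlated with wild type 1 (r = 0.984) and wild type 2 (r = 0.978) more than with knockout 2 (r = 0.952), so knockout 2 stands apart from its own group (correlations across genes, not over replicates). Separate cultures are not stated for libraries of the same group, and p-values then reflect only the spread among these 4 libraries, which may be technical.

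The 9 genes were in the lower part of the measured range: of the 14194 tested genes, 76.0% had a higher mean than Gata4, the most abundant member, and 97.8% a higher mean than Cubn, the least abundant tested member. Levels below are CPM, counts relative to the library total after TMM scaling, which corrects for library composition, and a count of 0 allows up to 3 counts, or 0.156 to 0.165 CPM. Per kilobase of annotated exon, a scale that permits comparison between genes, Gata4 was the highest member at a mean of 1.28 RPKM (CPM divided by exon length in kilobases) over the 4 libraries, followed by Amn at 0.750. Sox7 (0.360), Foxa2 (0.353) and Gata6 (0.280) came next, then Pdgfra (0.191), Dab2 (0.165), Sox17 (0.0658) and Cubn (0.0406). Neighbours in this order overlapped in their libraries, Gata4 and Amn included. All 15 genes of an epiblast and naive pluripotency list had a higher mean on this scale than Gata4, from Dppa3 at 1.71 to Pou5f1, which encodes OCT4, at 431. Nanog, the factor that opposes GATA6 in the early embryo, averaged 235 on this scale, 184 times the level of Gata4. In bulk RNA, fewer cells of a type and less RNA per cell cannot be told apart.

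**Figure D1:**
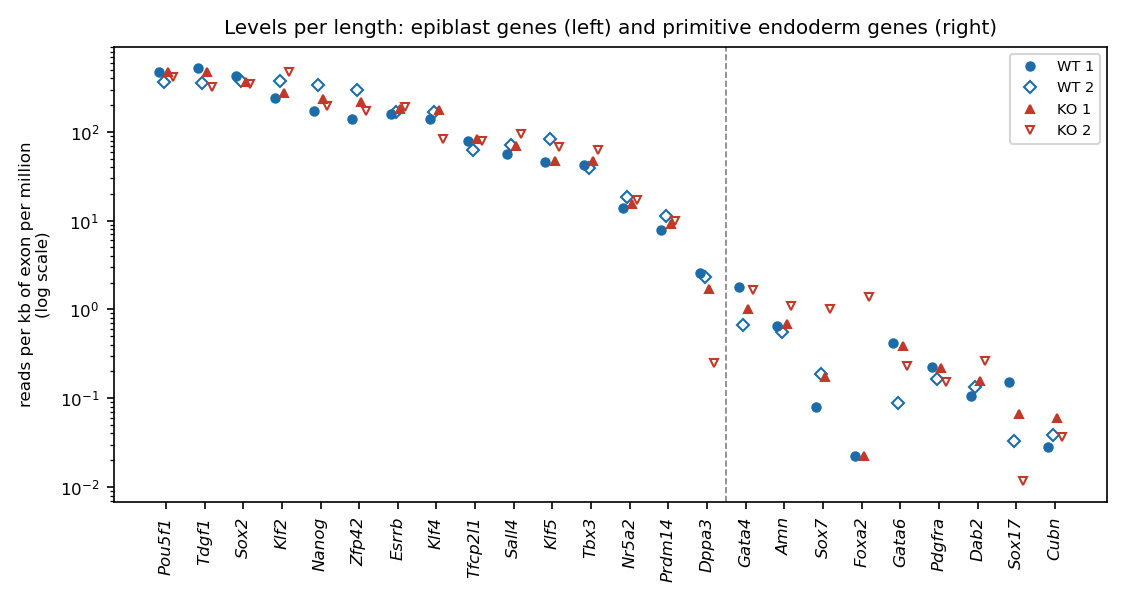
RPKM (CPM per kilobase of exon, log scale) in each of the 4 libraries for 15 epiblast genes on the left and the 9 primitive endoderm genes on the right, ordered by mean. The endoderm genes lie at or under the lowest epiblast gene by mean, Foxa2 in wild type 2 is at 0 and not drawn, and knockout 2 stands far above the other libraries for Sox7 and Foxa2.

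No primitive endoderm gene passed the test between the libraries labelled knockout and wild type. The edgeR quasi-likelihood test compared 14194 genes with enough counts and called 0 of them at an adjusted p under 0.05, or 0%, and 242 had an unadjusted p under 0.05, or 1.70%; DESeq2 called 2 genes and limma-voom 0, none of them among these 9. Of the 9 genes, 7 were tested and 2, Sox17 and Foxa2, had too few counts for the filter. Among the tested 7, 6 had a positive log2 fold change (labelled knockout minus wild type) and 1 a negative one, and 0 had an unadjusted p under 0.05. Dab2 and Amn were the 2 of 9 whose libraries labelled knockout both lay above both wild-type libraries, where 11.7% of all tested genes did so, and 0 of 9 lay below, where 12.7% of all tested genes did. The 2 genes outside the filter were not among them.

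**Figure D2:**
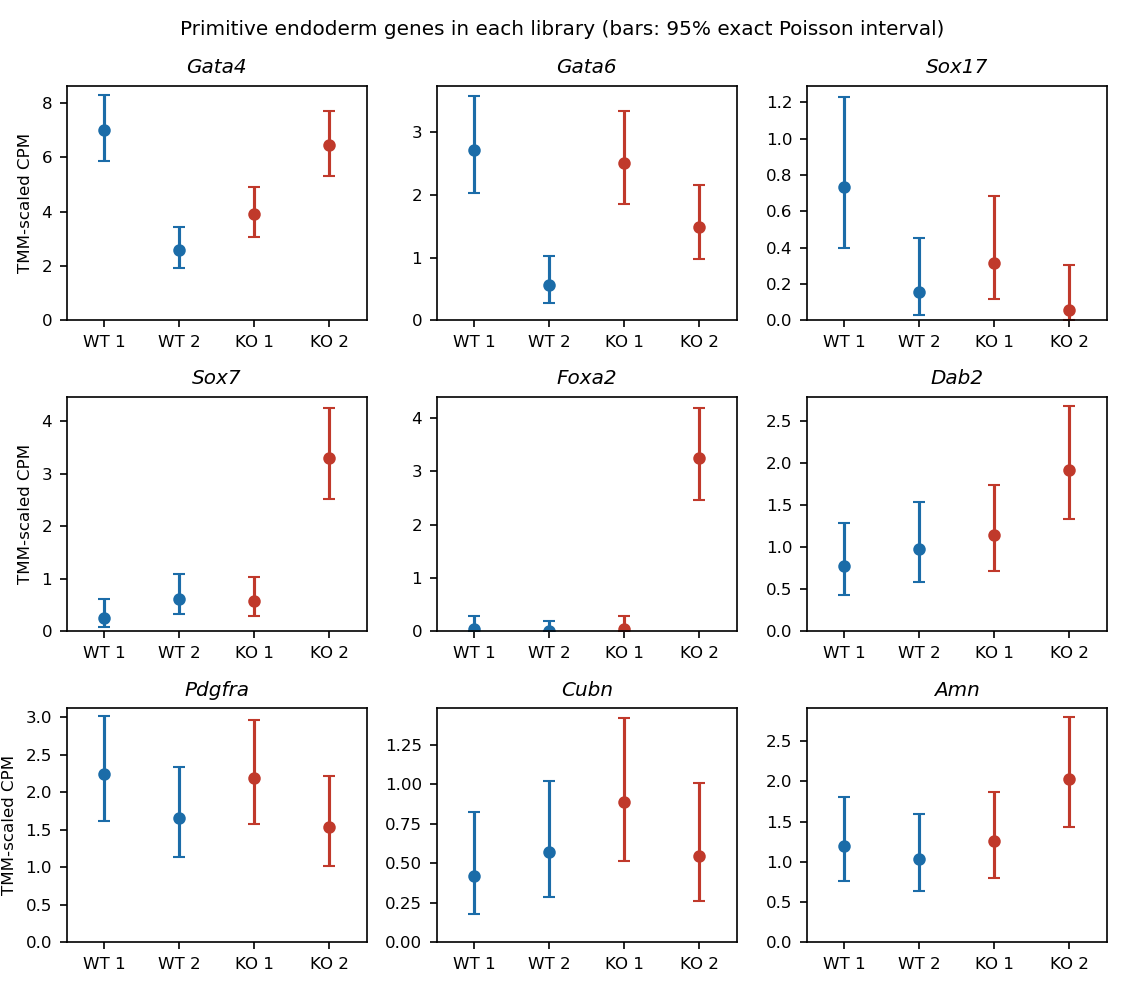
TMM-scaled CPM of the 9 genes in wild-type libraries 1 and 2 (WT, blue) and the libraries labelled knockout 1 and 2 (KO, red), each axis starting at 0, with bars for the 95% exact Poisson interval of the count. Gata4, Gata6 and Sox17 are lower in wild type 2 than in wild type 1, and Sox7 and Foxa2 are high in knockout 2 alone.

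Gata4 and Gata6, the GATA factors that specify the layer, had both their highest and their lowest library in wild type. Gata4 (Entrez gene 14463, chromosome 14, 63198914 to 63271712) gave 134 and 50 counts in wild type and 75 and 117 in the libraries labelled knockout, or 7.0 and 2.59 CPM against 3.92 and 6.43 CPM. The libraries labelled knockout lay between the wild-type ones. The means were 4.80 ± 3.12 CPM for wild type against 5.18 ± 1.78 CPM (SD, n = 2 each), with a log2 fold change of 0.11 (SE 0.60) and adjusted p = 1.00 by the edgeR quasi-likelihood test. This value was 0.99 without wild type 1, -0.43 without wild type 2 and -0.28 without knockout 2, so its direction is set by single libraries.

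Gata6 (Entrez gene 14465, chromosome 18, 11052510 to 11085636) gave 52 and 11 reads in wild type against 48 and 27. Wild type 2 was the low library, and wild type 1 and knockout 1 were alike. Its means were 1.64 ± 1.52 and 2.00 ± 0.724 CPM (SD, n = 2 each), a log2 fold change of 0.28 (SE 0.81, adjusted p = 1.00 by the edgeR quasi-likelihood test), which was 1.80 without wild type 1 and turned negative without wild type 2 (-0.43) and without knockout 1 (-0.15). The wild-type libraries differed 4.76-fold in Gata6 (95% exact interval 2.46 to 10.1, counting error only) and 2.70-fold in Gata4 (1.94 to 3.82). A gap between the wild-type libraries as large as that of Gata6 was seen in 2.17% of the 3735 tested genes with a mean of 1 to 10 CPM, and one as large as that of Gata4 in 8.73%.

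Sox17, an SRY-box factor of the SOXF group needed for endoderm, followed the same order in wild type at a lower level. Its counts (Entrez gene 20671, chromosome 1, 4490928 to 4497426) were 14 and 3 in wild type and 6 and 1 in the others. The group ranges overlapped, and 3 of the 4 libraries were at 6 counts or fewer. Counts of the libraries labelled knockout relative to wild type gave a ratio of 0.424 (95% exact interval 0.149 to 1.08, counting error only), which includes no difference. With no filter the edgeR quasi-likelihood test gave -1.22 (SE 1.16, adjusted p = 0.997).

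Nanog, chosen here after its values were seen, had 7332 counts in wild type 1 and 14682 in wild type 2, where Gata4 and Gata6 were 2.70-fold and 4.76-fold lower and Sox17 had 3 counts. In the libraries labelled knockout it had 10021 and 7938 counts. Egr1 and Spry4, targets of ERK signalling that were also chosen after their values were seen, had 555 and 4311 counts, and 3224 and 12004 counts, in the wild-type libraries. The lists these genes come from did not all follow: 6 of 15 epiblast genes (Pou5f1 with 20403 and 15654 counts, for example) and 10 of 31 FGF and ERK genes were higher in wild type 1 than in wild type 2. Markers of other cell types differed there too: the trophoblast list summed to 136 CPM in wild type 1 and 82.1 CPM in wild type 2, with 6 of 10 markers higher in wild type 1 and Cdx2 and Elf5 at 0 to 2 counts in every library, against 103 and 134 CPM in the libraries labelled knockout. The largest parts of the trophoblast sum in wild type were Tfap2c, at 66.3 and 23.1 CPM, and Tead4, at 36.8 and 36.9 CPM. The fibroblast list summed to 94.4 and 41.3 CPM in wild type (6 of 11 detected markers higher in wild type 1) against 67.6 and 37.4 CPM. Most of that sum was Pdgfrb and Thy1. Col1a1 gave 169 and 82 reads in wild type against 100 and 38. Twist1 gave 56 and 30 against 44 and 84, and Fbn1 36 and 43 against 44 and 45. Col1a2, Col3a1, Postn, Dcn and Twist2 had 0 to 6 counts in every library and Lum had 0. The part of these other cell types in the wild-type gap was not tested.

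**Figure D3:**
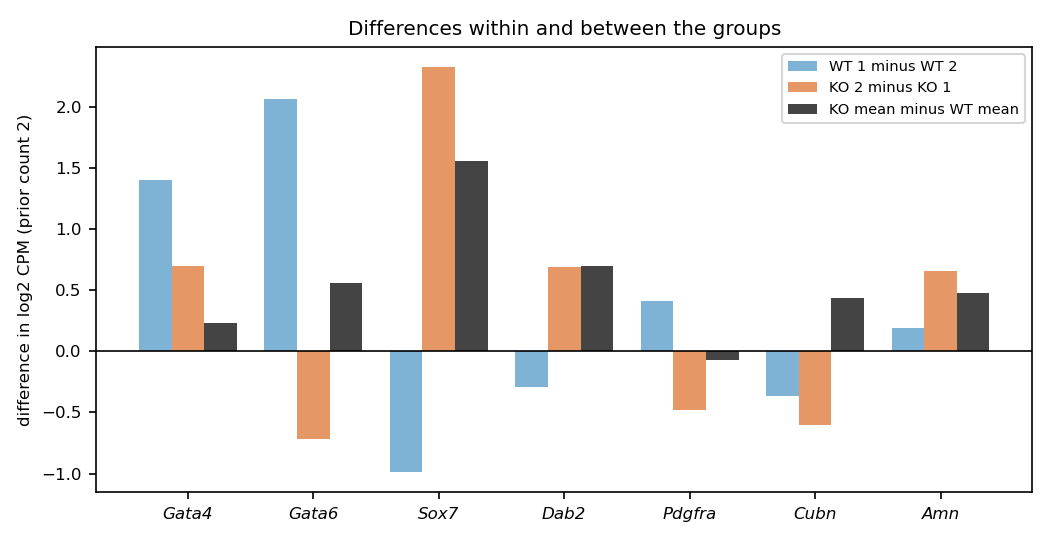
Differences in log2 CPM (prior count 2) for the 7 tested genes: wild type 1 minus wild type 2 (blue), knockout 2 minus knockout 1 (orange) and the mean of the libraries labelled knockout minus the mean of wild type (dark). In 6 of 7 genes at least 1 of the within-group differences is larger in size than the group difference, Dab2 being the exception, and the same held for 86.9% of all tested genes.

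Sox7 and Foxa2 were high in a single library. Sox7 (Entrez gene 20680, chromosome 14, 63943706 to 63950732), another SOXF factor of primitive endoderm, gave 5 and 12 reads in wild type against 11 and 60. Knockout 1 lay inside the wild-type range and knockout 2 was 5.74-fold above knockout 1 (95% exact interval 2.99 to 12.1, counting error only). Counts of the libraries labelled knockout relative to wild type gave a ratio of 4.30. Its 95% exact interval of 2.51 to 7.79 covers counting error only and leaves out the spread between libraries. The means of Sox7 were 0.442 ± 0.255 CPM for wild type against 1.94 ± 1.93 CPM (SD, n = 2 each). The log2 fold change was 2.11 (SE 0.97), short of the threshold by the edgeR quasi-likelihood test (unadjusted p = 0.0668, adjusted p = 1.00). It was 0.37 without knockout 2 and 2.88 without knockout 1.

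Foxa2 (Entrez gene 15376, chromosome 2, 148042877 to 148046969), a forkhead factor of visceral and definitive endoderm and of the midline, gave 1 and 0 reads in wild type against 1 and 59. In CPM this was 0.0523 and 0 in wild type, 0.0522 in knockout 1 and 3.24 in knockout 2, so that 3 libraries were under the limit that a count of 0 allows and 1 was far above it. Knockout 2 relative to knockout 1 gave a ratio of 62.1 (95% exact interval 10.7 to 2493, counting error only). Foxa2 fell outside the filter. With no filter the edgeR quasi-likelihood test gave a log2 fold change of 5.65 (SE 2.17, unadjusted p = 0.0460, adjusted p = 0.997). Without knockout 1 the log2 fold change was 6.63, in a fit with a single library labelled knockout. That fit assumes this library to vary as the wild-type ones do. Foxa2 entered it only through the 59 counts in knockout 2, the library that makes the difference, so a call there gives no support. Fitted folds of so low a gene depend on the prior count.

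Knockout 2 also held the highest values of most detected markers in a list for definitive endoderm and streak. Of the 9 primitive endoderm genes, 4 were highest in knockout 2 (Sox7, Foxa2, Dab2 and Amn), 4 in wild type 1 (Gata4, Gata6, Sox17 and Pdgfra) and 1 in knockout 1 (Cubn). In the list for definitive endoderm and primitive streak, cells in which Foxa2 and Sox17 are also made, 7 of 11 detected markers were highest in knockout 2. Sox17 itself was lowest there, at 1 count. Some leads were small, as for Kdr with 41 counts in wild type 2 and 43 in knockout 2. Other lists had many genes highest in this library too: 9 of 19 detected visceral endoderm products, 10 of 21 detected uptake genes and 4 of 15 epiblast genes. The share over all genes was not computed. The definitive endoderm and streak list summed to 42.8 CPM in knockout 2, 18.3 CPM in knockout 1 and 21.5 and 23.1 CPM in wild type. Eomes, which is also in the trophoblast list, was the largest part of each sum. It was at 12.7 and 16.6 CPM in wild type against 10.3 and 25.9 CPM. Cxcr4, a chemokine receptor of definitive endoderm, gave 56 and 24 reads in wild type against 57 and 159, while T, which encodes brachyury, had 9 and 6 against 7 and 13, and Cer1 was at 0 in all libraries. Gsc, with 8 and 3 counts in wild type against 3 and 6, was highest in wild type 1. So were Mesp1 (10 and 1 against 1 and 4) and Hand1 (17 and 3 against 14 and 14). Foxa3 was highest in wild type 2. Lhx1, 1 of the 7 markers highest in knockout 2, had only 1 and 0 counts against 0 and 2. The part of definitive endoderm and streak cells in the Foxa2 and Sox7 counts was not tested.

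Dab2 and Amn were higher in both libraries labelled knockout, by amounts that did not pass the test. Dab2 (Entrez gene 13132, chromosome 15, 6299788 to 6440715), the adaptor that links cargo receptors to clathrin, gave 15 and 19 reads in wild type against 22 and 35. The lowest of the libraries labelled knockout stood 3 counts above the highest wild-type library, within counting error. Means were 0.884 ± 0.142 and 1.54 ± 0.548 CPM (SD, n = 2 each), with a log2 fold change of 0.79 (SE 0.63, adjusted p = 1.00 by the edgeR quasi-likelihood test), and 0.38 without knockout 2.

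Amn (Entrez gene 93835, chromosome 12, 111271096 to 111276426), the membrane anchor of cubilin, gave 23 and 20 reads in wild type against 24 and 37. Knockout 1 exceeded wild type 1 by a single count. Means were 1.12 ± 0.117 and 1.64 ± 0.552 CPM (SD, n = 2 each), and the log2 fold change was 0.55 (SE 0.61, adjusted p = 1.00 by the edgeR quasi-likelihood test), or 0.17 without knockout 2. For both genes most of the group difference thus lay in knockout 2.

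Cubn (Entrez gene 65969, chromosome 2, 13276338 to 13491876), the cubilin receptor that takes up vitamin B12 complexes and lipoproteins with Amn, gave 8 and 11 reads in wild type against 17 and 10. Knockout 1 was the high library here, and the groups overlapped. The means were 0.494 ± 0.108 and 0.719 ± 0.239 CPM (SD, n = 2 each), a log2 fold change of 0.54 (SE 0.71, adjusted p = 1.00 by the edgeR quasi-likelihood test). It was 0.15 without knockout 1 and 0.84 without knockout 2. Cubn and its anchor Amn therefore had their highest counts in different libraries.

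Pdgfra (Entrez gene 18595, chromosome 5, 75151322 to 75198206), the receptor of PDGF-A that supports survival of primitive endoderm, had the narrowest spread of the 9 over the libraries. Its counts were 43 and 32 in wild type and 42 and 28 in the others, and the ranges overlapped almost wholly. Means were 1.95 ± 0.416 and 1.87 ± 0.463 CPM (SD, n = 2 each), with a log2 fold change of -0.06 (SE 0.57, adjusted p = 1.00 by the edgeR quasi-likelihood test). The ratio of the libraries labelled knockout to wild type was 0.961 (95% exact interval 0.684 to 1.35, counting error only). Its sign turned without wild type 1 (0.17) and without knockout 2 (0.17).

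**Figure D4:**
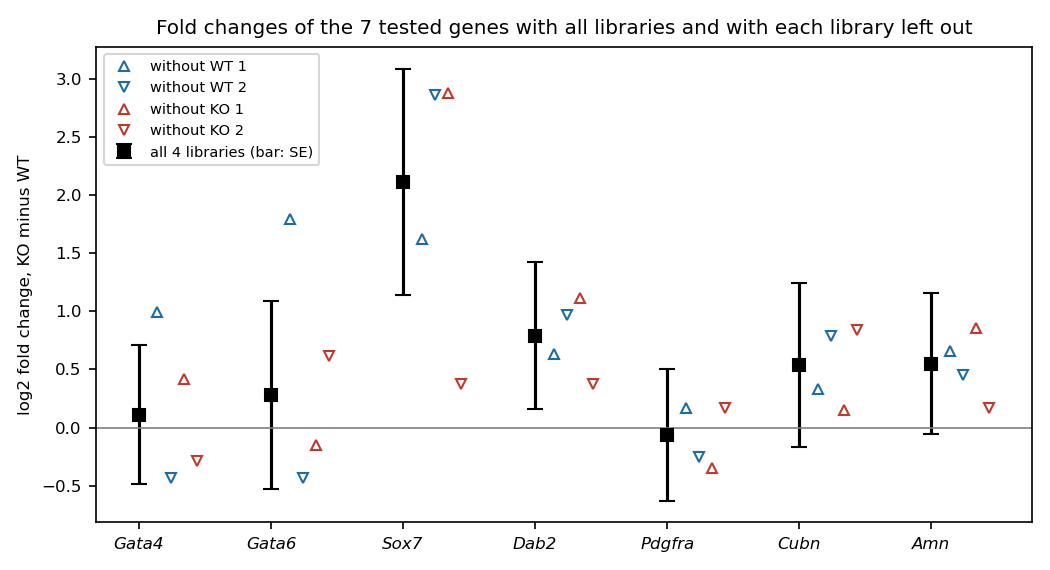
Log2 fold changes (labelled knockout minus wild type) of the 7 tested genes with all 4 libraries (black squares, bars for 1 SE) and with each library left out in turn (open triangles). Gata4, Gata6 and Pdgfra have values on both sides of 0, and the Sox7 value is 0.37 without knockout 2.

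Some counts could hold reads of other transcripts. In the GENCODE M21 annotation, 5 of the 9 genes (Gata6, Sox17, Dab2, Pdgfra and Cubn) overlap an annotated gene on the opposite strand, and the strand setting of the counting is not given in the sources used here. Gata4, Sox7, Foxa2 and Amn overlap no other annotated gene.

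Genes around the 9 members did not pass the test either, in any list. Of 20 other primitive endoderm genes 19 were tested, 8 with a positive and 11 with a negative fold change and a median log2 fold change of -0.08, against 0.00289 over all tested genes. Pth1r, the receptor of parathyroid hormone-related peptide, gave 18 and 7 reads in wild type against 20 and 32, a log2 fold change of 1.10 (SE 0.73). Krt18, a keratin of simple epithelia, had 303 and 206 against 168 and 99, or -0.90 (SE 0.43). The most abundant members were the basement membrane genes Nid2, at -0.11 (SE 0.20), and Lamc1, at -0.08 (SE 0.19). Hhex, an early endoderm homeobox factor named here after its values were seen, was at 0.06.

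Visceral endoderm products had 24 listed genes, of which 12 were tested, 9 positive and 3 negative, with a median of 0.39. Of this list, Afp, Apoa4, Cer1, S100g and Fgb were at 0 in all 4 libraries, and Ttr had 1 count in knockout 1 alone. Others, named here after their values were seen, were detected in every library. Hnf4a gave 212 and 191 reads in wild type against 220 and 159, a mean of 2.13 RPKM where Gata4 had 1.28. Trf gave 631 and 455 reads against 621 and 458, and Rhox5 170 and 193 against 116 and 544. Spink1, a secreted protease inhibitor, gave 12 and 10 reads in wild type against 16 and 83 (log2 fold change 2.22, SE 0.89), again highest in knockout 2, and its value was 0.54 without that library. Rbp4, the retinol carrier, had 61 and 71 against 26 and 10 (-1.84, SE 0.64). Apoe, a lipoprotein component, ranged from 6396 counts in wild type 2 to 25349 in knockout 2 (0.82, SE 0.55), and Lefty1, a Nodal inhibitor, from 325 in wild type 1 to 2024 in knockout 2 (0.65, SE 0.74). Apoe turned negative without knockout 2 (-0.22), and Lefty1 without wild type 1 (-0.06) or without knockout 2 (-0.41).

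In the uptake pathway of cubilin and amnionless, 21 of 22 genes were tested, 10 positive and 11 negative, with a median of -0.01. Lrp2, which encodes megalin, the receptor that works with cubilin, gave 431 and 414 reads in wild type against 599 and 944, a log2 fold change of 0.92 (SE 0.32, unadjusted p = 0.0251, adjusted p = 1.00 by the edgeR quasi-likelihood test). Lrp2 was the 1 tested gene of this list with both libraries labelled knockout above wild type, and 3 had both below. Over all tested genes, 11.7% lay above and 12.7% below. Fcgrt, the neonatal Fc receptor, was lower in both libraries labelled knockout, at -0.75 (SE 0.41). Cltc, the clathrin heavy chain, was at 0.24 (SE 0.22), and Ap2a1, a subunit of the clathrin adaptor AP-2, at -0.34 (SE 0.23).

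Upstream, 30 of 31 FGF and ERK pathway genes were tested, 17 positive and 13 negative, with a median of 0.03. The kinase gene Braf was at -0.34 (SE 0.23), with both libraries labelled knockout below wild type. Etv5, a transcription factor induced by FGF, was at 0.11 (SE 0.24), and Spry4, a feedback inhibitor, at 0.04 (SE 0.53). Fgfr2, the FGF receptor enriched in primitive endoderm and chosen here after its values were seen, gave 93 and 111 reads in wild type against 85 and 527. The other receptor genes of the list, Fgfr1, Fgfr3 and Fgfr4, were highest in wild type 1, and 11 of the 31 genes were highest in knockout 2.

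For Pdgfra, the other PDGF genes gave 5 of 6 tested, 3 positive and 2 negative, with a median of 0.15. Its ligand gene Pdgfa was at 0.15 (SE 0.30), while Pdgfc, another ligand of this receptor, gave 334 and 491 reads in wild type against 347 and 1551, at 1.27 (SE 0.65). Pdgfc turned to -0.24 without knockout 2 and was called without knockout 1. Among paralogs of the GATA, SOXF and FOXA factors, 7 of 9 were tested, 4 positive and 3 negative, with a median of 0.14. Sox18, the SOXF factor of vessels, had 15 and 23 counts against 38 and 33 (0.94, SE 0.60), and Foxa3 28 and 34 against 28 and 26 (-0.16, SE 0.57). Gata2, a blood and trophoblast GATA factor, gave 198 and 20 reads in wild type against 98 and 852 (2.19, SE 1.20). It was low where Gata4 and Gata6 were lowest and, unlike both, highest in knockout 2. Zfpm1, a GATA cofactor, was at -0.68 (SE 0.49), and at -0.17 without knockout 2 and -1.46 without knockout 1.

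Epiblast and naive pluripotency genes were all tested, 6 positive and 9 negative of 15, with a median of -0.01. Dppa3, a maternal factor kept in naive cells, had 44 and 40 counts against 29 and 4 (-1.32, SE 0.86; -0.52 without knockout 2 and -3.28 without knockout 1), and Tbx3, which supports both naive cells and extra-embryonic endoderm, was at 0.41 (SE 0.23). Esrrb, a nuclear receptor of naive cells, was at 0.18 (SE 0.19), and Tdgf1, the Nodal co-receptor, at -0.17 (SE 0.29). On the RPKM scale the genes of this list stayed far above the endoderm genes in all 4 libraries, except for Dppa3. Dppa3 was at 2.58 and 2.33 RPKM in wild type and 1.70 and 0.247 RPKM in the libraries labelled knockout. Gata4 was at 1.79 and 0.664 RPKM against 1.00 and 1.65 RPKM. Dppa3 thus lay near Gata4 in wild type 1 and knockout 1, and within the endoderm range in knockout 2.

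**Figure D5:**
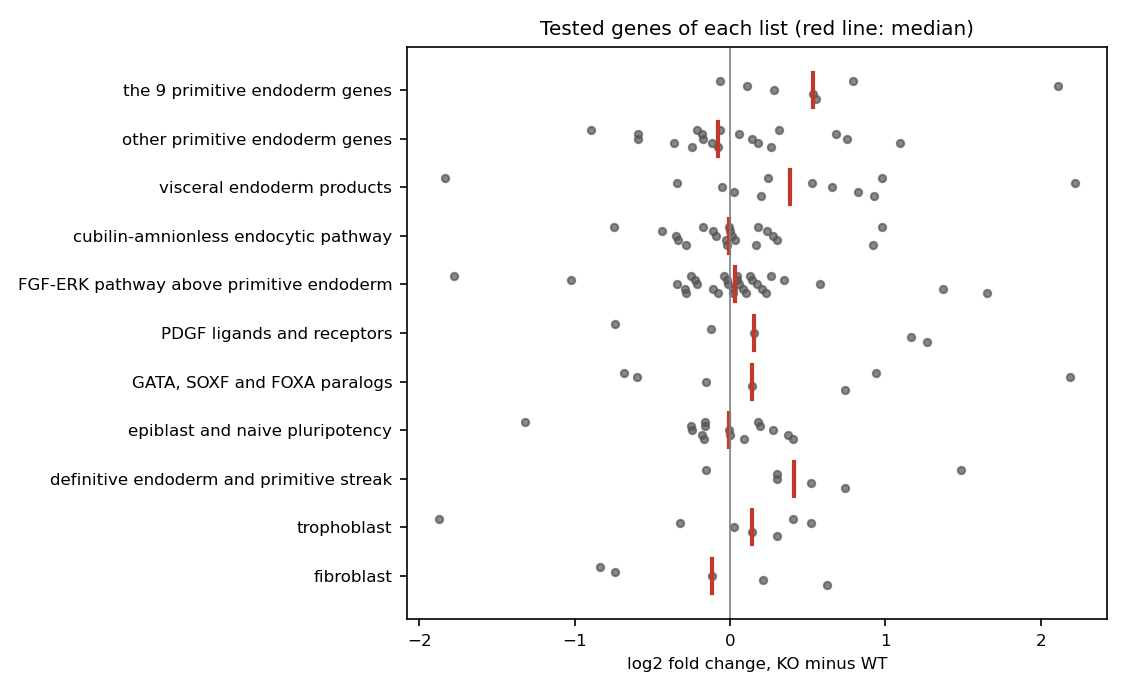
Log2 fold changes (labelled knockout minus wild type) of the tested genes of each list, 1 point per gene, with the list median as a red line. Points of every list lie on both sides of 0, and the median of the 9 endoderm genes (0.54 over the 7 tested) comes from genes that had to be high enough in some libraries to be tested.

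The genes with the library pattern most like the mean of the primitive endoderm genes were not endoderm markers. The mean of the centred log2 CPM of the 6 members at or above 1 CPM was -0.06 and -0.52 in wild type and 0.02 and 0.55 in the libraries labelled knockout. Over these 4 libraries and 13188 other genes, Ctbp1, a transcriptional corepressor, had the smallest root mean squared difference from it (0.0439), followed by Aldh1b1, a mitochondrial aldehyde dehydrogenase (0.0485), and Mbd6, a methyl-CpG-binding domain protein (0.0497). With 4 libraries and so many genes, close matches are plentiful. Single members also departed from the mean, so these genes resemble an average and not each member. Centred values of Gata6 were 0.75 and -1.31 in wild type against 0.64 and -0.08. Those of Sox7 were -1.27 and -0.29 against -0.38 and 1.94.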

How the data were processed

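The authors deposited whole-number read counts per Entrez gene for 4 libraries, with no scaling applied. HISAT2, featureCounts and the mm10 build are named per the submitters' processing notes, with versions, annotation, strand setting and the treatment of multiply mapped reads each not given in the sources used here. Symbols came from RefSeq (GRCm38.p6), which matched 24061 of 24116 genes.

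The main test was the quasi-likelihood F test of edgeR 4.0.16 (R 4.3.3) on genotype, after filterByExpr (14194 genes kept) and TMM scaling, with Benjamini-Hochberg adjustment across the genes tested and calls at 0.05. The SE is the size of the log2 fold change over the root of F. Log2 CPM used a prior count of 2, and exon lengths came from GENCODE M21. Intervals of counts are exact Poisson, and those of ratios exact conditional binomial, at 95%; both cover counting error only, since PCR copies count as separate reads.

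Members and lists were chosen with earlier results of these data known. All 9 members were named. Each other pathway list gave up to 3 genes past the threshold, the 2 largest changes with separated libraries and at least 1 CPM, and the 2 most abundant genes. A gene that this rule picked is not reported here. Likeness was the root mean squared difference of centred log2 CPM. Alternatives were 3 scalings, 2 filters, a replicate block, DESeq2 1.42.0, limma-voom (limma 3.58.1), the likelihood ratio test, calls at 0.01, and leaving out single libraries. On counts simulated for this comparison over 14194 genes, the main test called 2% of genes at 2-fold, 62% at 4-fold, 94% at 8-fold and 96% at 16-fold, plus 8 false calls. The changed genes were drawn at random from all tested genes, of which 76.0% or more had a higher mean than each endoderm gene. These rates therefore do not show what the test could detect in the 9 endoderm genes.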

Additional observations from a re-analysis of the deposited data

How the results depend on the processing

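The count of 0 genes past the threshold was the same with 3 other scalings, 2 other filters, limma-voom, the replicate block and calls at 0.01. It was 2 with DESeq2 and 4 with the edgeR likelihood ratio test, none of them among the 9 endoderm genes, and 0 to 91 with each library left out in turn (91 without knockout 1 and 8 without knockout 2). Among the endoderm genes only Foxa2 was called under any of these, without knockout 1. Foxa2 entered that fit only through its 59 counts in knockout 2, so the call gives no support for a difference. With RLE scaling, 3 of the 9 endoderm genes had both libraries labelled knockout above both wild-type ones. With upper-quartile scaling or library totals only, 2 did. The share of all tested genes was not computed for these scalings. Over the leave-one-out fits, in which 1 group has a single library, 4 to 5 of the 9 endoderm genes did not overlap on the higher side, where 26% to 37% of all tested genes did so, and 0 to 4 on the lower side, where 25.3% to 36.6% did.

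Directions turned within the leave-one-out ranges of Gata4 (-0.43 to 0.99), Gata6 (-0.43 to 1.80), Pdgfra (-0.34 to 0.17), Pdgfa (-0.11 to 0.50), Pdgfc (-0.24 to 1.99), Gata2 (-0.14 to 4.64), Etv5 (-0.12 to 0.38), Spry4 (-0.61 to 1.28), Apoe (-0.22 to 1.47), Lefty1 (-0.41 to 2.11) and Tdgf1 (-0.49 to 0.14), and for Spry4 also with library totals only (-0.0105); the cause was not tested. A further 419 of the single-gene values kept direction and call.

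The replicate numbers state no shared batch. Same-numbered libraries deviated together (r = 0.347 across genes), which for 2 pairs is only a hint, and a model with the replicate block called 0 genes, with 735 at an unadjusted p under 0.05. At 0 to 134 counts of an endoderm gene per library, counting error alone is wide.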
